A study of Arabidopsis thaliana with 12 samples.

Results

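Splicing was compared between Kn-0 and Col-0 seedlings of Arabidopsis thaliana that had both been given abscisic acid (ABA), the stress hormone of drought and of the maturing seed. Kn-0 and Col-0 are natural accessions, that is, inbred lines derived from wild plants, and Col-0 is the strain behind the reference genome. The tested libraries were 3 from Kn-0 and 3 from Col-0, all from whole seedlings aged 4 days and moved for 3 h to medium with 5 µM ABA, out of 12 libraries of polyadenylated RNA in the series. The other 6, again 3 from Kn-0 and 3 from Col-0, were moved for 3 h to medium without the hormone (mock) and serve as a second set of libraries. Each group had 3 biological replicates, and all seedlings had been grown on filter paper in continuous light.

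The unit of measurement was the splicing event, for which the authors counted reads that cross exon junctions of either of 2 forms. The inclusion level is the share of the longer form after correction for its length: the share of transcripts that keep an intron (retained intron), keep an exon (skipped exon), or use the site that makes the exon longer (alternative 5' or 3' splice site). The authors described 196149 events in Kn-0 and 192386 in Col-0, each on its own gene models. An event entered the comparison when its type, gene, strand and the spacing of its 6 exon boundaries were the same in both tables and unique. This gave 55233 paired events, 28.2% of the Kn-0 events and 28.7% of the Col-0 events, and the read counts of 55200 could be recovered. An event with an insertion or deletion between its boundaries in 1 accession cannot be paired in this way and was not compared.

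Splicing removes introns at a donor site, which nearly always begins with GT, and an acceptor site, which ends with AG. In plants intron retention is a common form of alternative splicing. Retention or a shift of frame often brings in an early stop codon, which can send the transcript to decay. The serine/arginine-rich (SR) proteins bind exons and help choose among sites, and U2AF reads the pyrimidine-rich stretch ahead of the acceptor. In Arabidopsis the transcripts of many SR genes are themselves alternatively spliced, and their forms are known to shift with light, temperature and stress.

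Of 16164 paired events with at least 10 junction reads in each of the 6 ABA libraries and with both forms present (mean inclusion from 0.02 to 0.98), 320 differed between the accessions, or 1.98%. A call needed an adjusted p under 0.05 (limma on the log2 odds of inclusion, Benjamini-Hochberg over all events) and a difference of at least 10 percentage points between the mean inclusion levels. Inclusion was higher in Kn-0 at 203 of the called events (1.26% of those tested) and lower at 117 (0.724%). The calls lay in 215 of 5717 genes (3.76%). At 306 of the 320, the inclusion levels of the 3 Kn-0 libraries did not overlap those of the 3 Col-0 libraries. The calls were made on these same libraries, so this count is largely set by the call and is not separate evidence. The median difference was 0.196 of the inclusion scale, 28 events in 22 genes differed by at least 0.5, and at 74 events in 61 genes the form above 50% was not the same in the accessions. Because each accession has its own gene models and its own reads, an inherited difference in splicing and a difference in how reads were placed cannot be told apart from these tables. In whole seedlings, a change of inclusion within cells and a change in the mix of cell types cannot be told apart either.

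**Figure D1:**
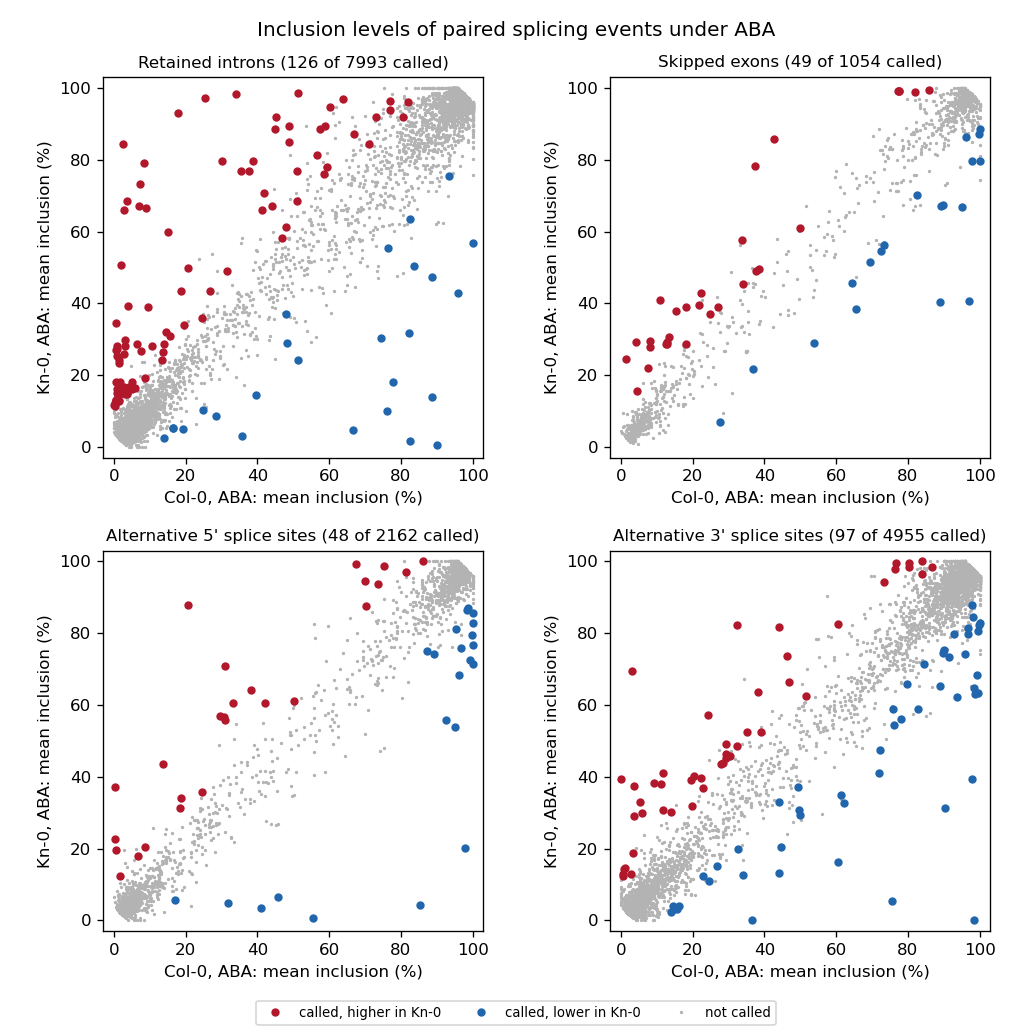
Mean inclusion level in percent of every tested event under ABA, Kn-0 on the vertical and Col-0 on the horizontal axis, 1 panel per event type; each point is 1 event and the mean of 3 libraries. Red points are called and higher in Kn-0, blue points are called and lower in Kn-0, and grey points were not called; most events lie along the diagonal, and among retained introns 100 called points lie above it and 26 below.

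Some sites behind the largest differences are shown as they stand in the Col-0 reference (TAIR10.1 from RefSeq), since the accessions use them so unequally. Capitals mark the intron bases that touch the exon. The Kn-0 sequence was not used here. Coordinates of the Col-0 events are those of TAIR10, and on this sequence 7916 of 7993 distinct tested introns (99.04%) began with GT or GC and ended with AG. The first pair are donors of REV1 that lie 12 bases apart, the next pair are donors of AT1G05870 that lie 47 bases apart, and the third pair are acceptors of AT5G53010 that lie 67 bases apart. Both windows of AT5G61190 and SUVH3 hold a pair of acceptors 3 bases apart. The ends of introns of NUC-L1, AT1G31500 and SR30 follow, and last the donors of CYSC1.
REV1 long form, chr5:18056580-18056597, plus strand: attctcGTgaataatgtc
REV1 short form, chr5:18056568-18056585, plus strand: caagacGTctttattctc
AT1G05870 long form, chr1:1772297-1772314, minus strand: ttccatGTatgtgtacta
AT1G05870 short form, chr1:1772344-1772361, minus strand: tggaagGTctaaaattga
AT5G53010 long form, chr5:21490848-21490871, minus strand: attataaattttgtatAGgtctgt
AT5G53010 short form, chr5:21490781-21490804, minus strand: aaactacttaatgtgaAGgttttt
AT5G61190 both acceptors, chr5:24619115-24619140, plus strand: ctaaaatatcgatgtAGaAGgcattt
SUVH3 both acceptors, chr1:27491730-27491755, plus strand: ttccacttttggtatAGcAGagaatt
NUC-L1 donor, chr1:18100622-18100639, plus strand: aagcggGTatgttagtct
NUC-L1 acceptor, chr1:18100707-18100730, plus strand: ttattgcagcaacttcAGaagtgg
AT1G31500 donor, chr1:11274729-11274746, minus strand: gaaaagGTgatgagaaag
AT1G31500 acceptor, chr1:11274591-11274614, minus strand: atctgccccaaacaaaAGattctc
SR30 donor, chr1:2944725-2944742, minus strand: tatgaaGTacgcagtaag
SR30 acceptor, chr1:2944581-2944604, minus strand: aaatttttgatgtgacAGataagg
CYSC1 long form, chr3:22736421-22736438, plus strand: tggaaaAGttaatagctt
CYSC1 short form, chr3:22736283-22736300, plus strand: agacagGTgctttgtgaa
The donor of the long form of CYSC1 has AG and not GT or GC in the Col-0 reference. Among called alternative 5' sites, both donors were canonical on this sequence in 46 of 48 events (95.8%), against 2095 of 2162 tested (96.9%), and among called alternative 3' sites both acceptors were canonical in 94 of 97 (96.9%), against 4829 of 4955 tested (97.5%).

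Retained introns gave 126 calls of 7993 tested (1.58%), in 95 genes, 100 of them more retained in Kn-0 and 26 less. An intron of AT1G31500, a DNase I-like protein by its annotation, was retained at 85.7%, 83.3% and 84.3% in the Kn-0 libraries, against 1.5%, 1.9% and 4.1% in Col-0. These groups are far apart, with 36, 40 and 43 inclusion reads in Kn-0 against 6, 9 and 18 in Col-0, and 3, 4 and 4 skipping reads in Kn-0 against 194, 233 and 208 in Col-0. The intron, at chromosome 1, 11274597 to 11274740 (144 bases, minus strand), lies next to coding sequence and is in no annotated exon. The difference in log2 odds of inclusion, Kn-0 minus Col-0, was 7.35 ± 0.56 (standard error, n = 3 per group, limma adjusted p = 2.3e-36).

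NUC-L1 (AT1G48920) encodes a nucleolin, a nucleolar protein that takes part in the making of ribosomal RNA. Its intron at chromosome 1, 18100628 to 18100724, overlaps annotated coding sequence. It was retained at 90.1%, 94.7% and 94.3% in Kn-0, against 23.0%, 25.2% and 5.6% in Col-0 (log2 odds difference 5.57 ± 0.52, limma adjusted p = 9.8e-24). The groups do not overlap, which the choice of this event required, and the Col-0 values rest on only 8, 9 and 2 inclusion reads. AT1G02300, a cysteine proteinase by its annotation, retained an intron at 97.4%, 97.1% and 97.5% in Kn-0, against 22.9%, 32.9% and 20.5% in Col-0 (limma adjusted p = 1.1e-12). BGLU7 (AT3G62740), of the beta glucosidase family, stood at 83.4%, 70.7% and 83.5% in Kn-0 and at 7.2%, 11.2% and 6.5% in Col-0 (limma adjusted p = 1.4e-38). It had 5 called events in all.

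Of the introns that were spliced out in Kn-0 and kept in Col-0, that of REV1 (AT5G44750) differed most. REV1 is a DNA polymerase that copies past damaged bases. The stretch at chromosome 5, 18056574 to 18056667 (94 bases, plus strand) overlaps coding sequence in the Col-0 annotation, and the event treats it as an intron. It was included at 0.0%, 0.0% and 1.5% in Kn-0, against 88.7%, 90.7% and 91.1% in Col-0. Kn-0 had 0, 0 and 1 inclusion reads and 22, 23 and 38 skipping reads, against 248, 222 and 252 inclusion reads and 18, 13 and 14 skipping reads in Col-0 (log2 odds difference -8.97 ± 1.06, limma adjusted p = 7.8e-15). Nearly all Kn-0 reads thus came from splicing at the donor of the short form shown above. The alternative 5' site event of REV1, which shares those skipping reads, had the long form at 0.0%, 0.0% and 2.3% in Kn-0, against 43.2%, 57.1% and 66.1% in Col-0.

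AT1G05870, a protein of unknown function, had the most reads of these events. An intron at chromosome 1, 1772142 to 1772355 (214 bases, minus strand), outside the coding sequence of the gene models, was retained at 9.7%, 10.6% and 9.3% in Kn-0, against 76.5%, 73.4% and 78.6% in Col-0 (log2 odds difference -4.86 ± 0.16, limma adjusted p = 1.1e-192). The donor of the long form shown above lies within that intron. It was used at 4.0%, 4.6% and 3.9% in Kn-0, against 86.6%, 84.2% and 85.6% in Col-0 (log2 odds difference -7.05 ± 0.21, limma adjusted p = 1.7e-235). Both events share their skipping reads, 625, 662 and 651 in Kn-0 against 60, 75 and 74 in Col-0, so they are not separate evidence. AT1G27520, a glycosyl hydrolase by its annotation, retained an intron at 18.6%, 18% and 17.6% in Kn-0, against 79.9%, 77.8% and 75.6% in Col-0 (limma adjusted p = 5.1e-41). AT2G45245, which has no annotated protein, stood at 10.4%, 16.7% and 14.4% in Kn-0 and at 77.7%, 97.1% and 91.5% in Col-0 (limma adjusted p = 4.7e-21). The region of AT2G45245 has 1 other copy with 98.8% identity in the reference, so its reads may be split between copies and its values are uncertain.

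Skipped exons gave 49 calls of 1054 tested (4.65%), in 29 genes, 30 higher and 19 lower in Kn-0, with a median difference of 0.181 beside 0.196 over all calls. The exon of AT3G16565, at chromosome 3, 5641836 to 5641934 (99 bases, overlapping coding sequence), was included at 36.8%, 52.7% and 33.1% in Kn-0, against 15.6%, 4.3% and 12.7% in Col-0 (log2 odds difference 2.21 ± 0.38, limma adjusted p = 6.3e-07). AT5G24740, a putative vacuolar sorting protein, included an exon of 112 bases at 97.4%, 100% and 100% in Kn-0, against 75.9%, 87.6% and 68.0% in Col-0 (limma adjusted p = 0.00089). This exon overlaps coding sequence. Its length is not a multiple of 3, so its loss shifts the reading frame if it is wholly coding. AT1G49590, a zinc finger protein, stood at 44.7%, 49.2% and 34.8% in Kn-0 and at 23.2%, 23.1% and 20.7% in Col-0 (limma adjusted p = 1.5e-08). AT4G19550, annotated as a transcription regulator, stood at 63.3%, 47.8% and 62.1% in Kn-0 and at 26.6%, 30.9% and 43.6% in Col-0 (limma adjusted p = 0.00046). The groups of libraries did not overlap at any of these 4 exons, which the choice of these events required.

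Of the exons that Kn-0 skipped more often, several rested on single libraries. A glycosyltransferase gene, AT5G65685, included an exon of 34 bases at 65.6%, 55.7% and 78.8% in Kn-0, against 91.4%, 97.1% and 96.4% in Col-0 (limma adjusted p = 0.0021). The exon of 57 bases of AT5G06350 was included at 64.9%, 57.0% and 79.9% in Kn-0, against 84.8%, 89.9% and 94.4% in Col-0 (limma adjusted p = 0.0084). This call was lost without the second Kn-0 library (adjusted p = 0.17) or the third Col-0 library (adjusted p = 0.079). The exon of 11 bases in AT2G30600, which was at 3.4%, 7.7% and 9.6% in Kn-0 against 42.9%, 26.9% and 13.3% in Col-0 (limma adjusted p = 0.0081), lost its call without the first Col-0 library (adjusted p = 0.27) or the third Kn-0 library (adjusted p = 0.063). AT3G55080, a SET domain protein, included an exon of 143 bases at 88.0%, 88.0% and 63.3% in Kn-0, and at 100% in each Col-0 library. There 0 of 272 reads skipped it, which allows up to 1.1% of raw junction reads (counting error only, not corrected for length). Its adjusted p was 0.01, and 0.07 without any 1 of the Col-0 libraries or 0.14 without the third Kn-0 library.

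Alternative 5' splice sites gave 48 calls of 2162 tested (2.22%), in 43 genes, 26 with more and 22 with less of the long form in Kn-0. CYSC1 (AT3G61440) encodes the mitochondrial enzyme that detoxifies cyanide with cysteine. Its long form, longer by 138 bases that overlap coding sequence, was at 72.4%, 91.3% and 100% in Kn-0, against 18.9%, 20% and 23.1% in Col-0 (log2 odds difference 3.89 ± 0.67, limma adjusted p = 6.4e-07). The Kn-0 values rest on 21, 21 and 33 reads of the long form and 4, 1 and 0 of the short form. In QQT2 (AT4G21800), a GTPase needed in the early embryo, the long form was at 38.8%, 40.3% and 32.2% in Kn-0, against 0.0%, 0.0% and 0.7% in Col-0, where it had 0, 0 and 2 reads (limma adjusted p = 5e-11).

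RPL34 (AT1G69620), a protein of the large ribosomal subunit, used the long form at 98.3%, 99.4% and 100% in Kn-0, against 64.9%, 71.4% and 66.0% in Col-0 (log2 odds difference 5.19 ± 0.76, limma adjusted p = 1.8e-09). Its short form had 3, 1 and 0 reads in Kn-0, against 128, 85 and 119 in Col-0. A second gene is annotated on the same strand over this stretch. AT1G15410, of the racemase family, used the long form at 12.4%, 4.1% and 3.3% in Kn-0, against 46.0%, 42.0% and 49.2% in Col-0 (limma adjusted p = 1.5e-10). AT1G27921 stood at 75.3%, 48.2% and 37.8% in Kn-0 and at 100%, 100% and 85.5% in Col-0 (limma adjusted p = 0.00089). Both AT1G15410 and AT1G27921 overlap a gene on the other strand here, and whether the libraries keep strand is not given in the sources used here, so some of their reads may belong to the partner. Of all 320 called events, 16 overlap another annotated gene, 15 of them on the other strand.

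Alternative 3' splice sites gave 97 calls of 4955 tested (1.96%), in 82 genes, 47 with more and 50 with less of the long form in Kn-0. The widest gap of all events was that of AT5G53010, annotated as a calcium-transporting ATPase. Its long form was at 0.0% in each of the 3 Kn-0 libraries, against 97.9%, 100% and 97.4% in Col-0 (limma adjusted p = 1.3e-12). Over the Kn-0 libraries 0 of 94 reads used the acceptor of the long form. This allows up to 3.19% of raw junction reads (counting error only, not corrected for length). In the Col-0 libraries that acceptor had 71, 56 and 58 reads against 1, 0 and 1 for the other site. The 67 bases between the acceptors, which are not a multiple of 3, lie next to coding sequence.

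AT5G61190, a zinc finger protein, has acceptors 3 bases apart, at chromosome 5, 24619132 to 24619134. The bases between them overlap coding sequence and have the length of 1 codon. The upstream acceptor was used at 6.2%, 6.4% and 3.6% in Kn-0, against 74.5%, 78.5% and 74.1% in Col-0 (log2 odds difference -5.65 ± 0.4, limma adjusted p = 4.7e-43). SUVH3 (AT1G73100), of the family of SU(VAR)3-9 histone methyltransferase homologues, also has acceptors 3 bases apart. Those 3 bases neither lie in nor touch annotated coding sequence. Its upstream acceptor was used at 38.5%, 44.5% and 29.2% in Kn-0, against 6.2%, 3.3% and 2.0% in Col-0 (log2 odds difference 3.68 ± 0.47, limma adjusted p = 7.8e-13). Kn-0 thus used the upstream acceptor less than Col-0 in AT5G61190 and more in SUVH3. Of 477 tested pairs 3 bases apart, 7 were called (1.47%), 2 with more and 5 with less use of the upstream acceptor in Kn-0.

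CVP2 (AT1G05470) encodes an inositol polyphosphate phosphatase of leaf vein patterning. Its long form is longer by 21 bases that overlap annotated exon but no coding sequence. That form was at 72.3%, 63.1% and 73.2% in Kn-0, against 0.0%, 4.1% and 5.7% in Col-0 (log2 odds difference 5.51 ± 0.58, limma adjusted p = 8.6e-19). UPS2 (AT2G03530), a transporter of ureides and uracil, used the long form at 32.1%, 28.5% and 32.9% in Kn-0, against 84.4%, 98.3% and 88.3% in Col-0 (limma adjusted p = 1.9e-15). HSL1 (AT4G32010), a B3 domain repressor of the seed maturation genes, stood at 78.9%, 75.0% and 91.3% in Kn-0 and at 41.2%, 48.4% and 42.9% in Col-0 (limma adjusted p = 0.0048). AT3G58640, a kinase by its annotation, had the long form at 37.7%, 44.2% and 36.2% in Kn-0 and in 0 of 87 reads in Col-0 (limma adjusted p = 0.00048). This allows up to 3.45% of raw junction reads, not corrected for length. In mock this form was at 35.9%, 31.6% and 24.8% in Kn-0. The Col-0 mock libraries had it at 6.4%, 4.6% and 3.1%, on 1 read each, so Col-0 does use that site. In AT3G55080 the long form was at 38.6%, 49.4% and 30.4% in Kn-0, against 100%, 93.3% and 100% in Col-0 (limma adjusted p = 2e-06).

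**Figure D2:**
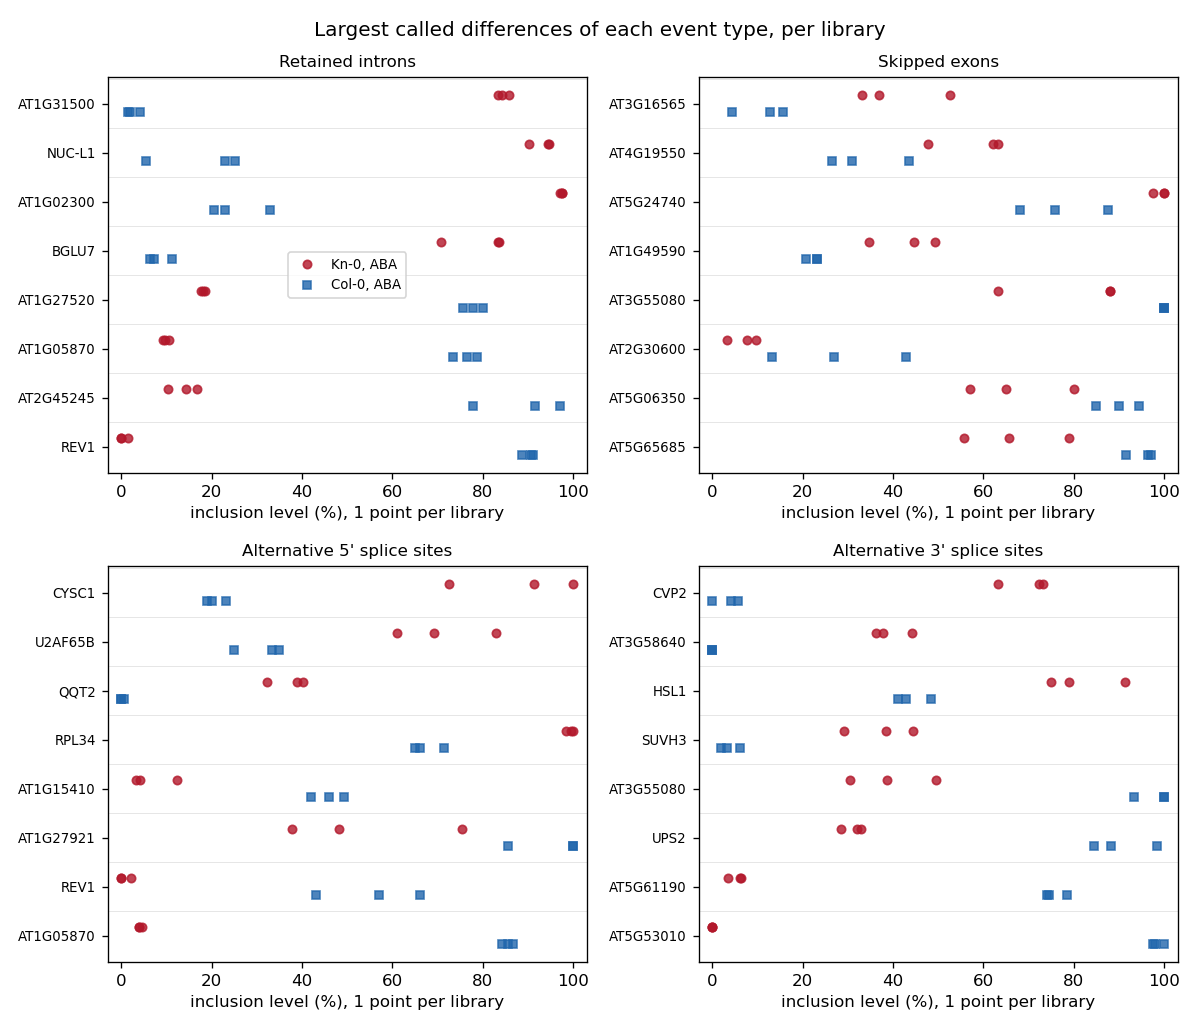
Inclusion level in percent, on the horizontal axis, of the events with the largest called differences of each type, 4 higher and 4 lower in Kn-0; red circles are the 3 Kn-0 ABA libraries and blue squares below them the 3 Col-0 ABA libraries of each gene. The groups of 3 points do not overlap in any row, which the choice of these events required; the points of AT5G53010, at 0.0% in Kn-0 and at 97.4% or above in Col-0, lie farthest apart.

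Just inside the threshold of 10 percentage points lay alternative 3' sites of AT3G11960, at a mean of 87.8% in Kn-0 and 97.8% in Col-0, and of AT2G26810, at 12.8% in Kn-0 and 2.8% in Col-0. Just outside it lay an alternative 3' site of AT3G12150 at 25.6% in Kn-0 and 15.6% in Col-0, and an intron of the sodium hydrogen exchanger NHX5 at 30.1% in Kn-0 and 20.2% in Col-0.

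Among genes of SR proteins, 15 of 20 had tested events and 4 had a called one, beside 3.76% of all genes tested. All 4 had more of the longer form in Kn-0. The calls were 9 of 79 events (11.4%), beside 1.98% of all events. Of these, 4 are in RS40 and 3 in SR45a. The called events of each of these genes share their skipping reads, so they are not separate evidence. The median difference over the 79 events was 0.0067, against 0.0023 over all events tested. An intron of SR30 (AT1G09140), at chromosome 1, 2944587 to 2944736 (150 bases, minus strand), overlaps annotated coding sequence. It was retained at 76.5%, 86.4% and 92.0% in Kn-0, against 36.7%, 58.7% and 51.4% in Col-0 (log2 odds difference 2.19 ± 0.54, limma adjusted p = 0.0023). Without the first Col-0 library the call was lost (adjusted p = 0.076). In RS40 (AT4G25500), 4 skipped exons that end at the same donor were called, and the largest difference was that of an exon of 257 bases at chromosome 4, 13025600 to 13025856. This exon was included at 41.9%, 38.6% and 38.1% in Kn-0, against 22.7%, 24.3% and 18.6% in Col-0, on 241 to 265 inclusion reads per library in Kn-0 and 153 to 172 in Col-0 (log2 odds difference 1.23 ± 0.14, limma adjusted p = 3.5e-16).

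RS31a (AT2G46610) had the long form of an alternative 5' site, longer by 556 bases, at 63.4%, 65.9% and 52.3% in Kn-0, against 39.8%, 46.6% and 39.8% in Col-0 (log2 odds difference 1.03 ± 0.29, limma adjusted p = 0.011). A gene on the other strand overlaps that stretch. SR45a (AT1G07350) included an exon of 84 bases at 48.0%, 54.4% and 44.8% in Kn-0, against 37.1%, 40% and 35.6% in Col-0 (log2 odds difference 0.67 ± 0.2, limma adjusted p = 0.025). The groups did not overlap in either gene, yet both calls were lost when any of 4 libraries was left out, namely the first or second of Kn-0 or the first or the third of Col-0. The adjusted p was then 0.1, 0.084, 0.083 and 0.069 in RS31a, and 0.057, 0.24, 0.092 and 0.14 in SR45a. Without precision weights for read depth, the adjusted p was 0.15 in SR30, 0.41 in RS31a and 0.49 in SR45a, while RS40 kept its call.

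Of 20 genes of other splicing and RNA-binding proteins, 13 were tested and 1 was called, beside 3.76% of all genes tested. The call covers 3 of 65 events (4.62%), beside 1.98% of all events. This gene was U2AF65B (AT1G60900), the large subunit of the factor that marks acceptors, with 3 called events, 2 of which share their skipping reads. The long form of an alternative 5' site, longer by 447 bases at chromosome 1, 22425404 to 22425850, was at 82.9%, 69.2% and 60.9% in Kn-0, against 35%, 25% and 33.3% in Col-0 (log2 odds difference 2.25 ± 0.46, limma adjusted p = 8.9e-05). It rests on 28 to 36 inclusion reads per library in Kn-0 and 13 to 14 in Col-0. The stretch is in no annotated exon. Without precision weights the adjusted p was 0.15.

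Among 15 genes of flowering time and light perception, 4 had tested events and MAF2 and MAF3 had called ones, beside 3.76% of all genes tested. The calls were 4 of 25 events (16.0%), beside 1.98% of all events. Of these 4 events 3 are in MAF2. Both genes are MADS-box repressors of flowering related to FLC, and they lie next to each other on chromosome 5. An intron of MAF2 (AT5G65050) at chromosome 5, 25984848 to 25984940 was retained at 77.9%, 78.6% and 82.7% in Kn-0, against 19.7%, 36.4% and 34.0% in Col-0 (log2 odds difference 3.05 ± 0.5, limma adjusted p = 1.1e-07). It had 234, 180 and 217 inclusion reads in Kn-0, against 3, 7 and 9 in Col-0, where it falls short of 20 junction reads in each library. A second intron of MAF2, at 25985003 to 25985088 and far better covered in Col-0, was retained at 90.9%, 89.0% and 88.6% in Kn-0, against 57.3%, 55.4% and 63.5% in Col-0 (limma adjusted p = 1.1e-48). In MAF3 (AT5G65060) the long form of an alternative 3' site was at 17%, 23.3% and 19.3% in Kn-0, against 36.1%, 25.2% and 36.5% in Col-0 (limma adjusted p = 0.00025). The region of the MAF3 site has 2 other copies of up to 93.3% identity, and that of another MAF2 event, an alternative 3' site, has 1 of 93.0%, so reads of these neighbours may be split. MAF3 lost its call without precision weights (adjusted p = 0.22) and with its own variance counted in full (adjusted p = 0.17).

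The listed genes of the circadian clock and of ABA signalling gave no call. Of 21 clock genes 13 were tested, in 51 events, and of 34 ABA signalling genes 7 were tested, in 10 events. The list of ABA signalling genes does not hold DWA1, which is described with the genes of several event types. The largest difference was 0.133 among the clock events and 0.166 among the ABA signalling events. These counts of 0 stand beside 1.98% of all events, and both lists hold few events. Of 14 NLR immune receptor genes only RPS6 (AT5G46470) had tested events, 5 in all, of which 1 was called. This count stands beside 1.98% of all events. It comes from 1 gene, so it describes RPS6 and not NLR genes as a group. The long form of an alternative 5' site was at 23.3%, 47.8% and 30.9% in Kn-0, against 17.6%, 19% and 20% in Col-0 (limma adjusted p = 0.014), and the call rested on the second Kn-0 library (adjusted p = 0.38 without it) and the first Col-0 library (adjusted p = 0.076 without it).

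**Figure D3:**
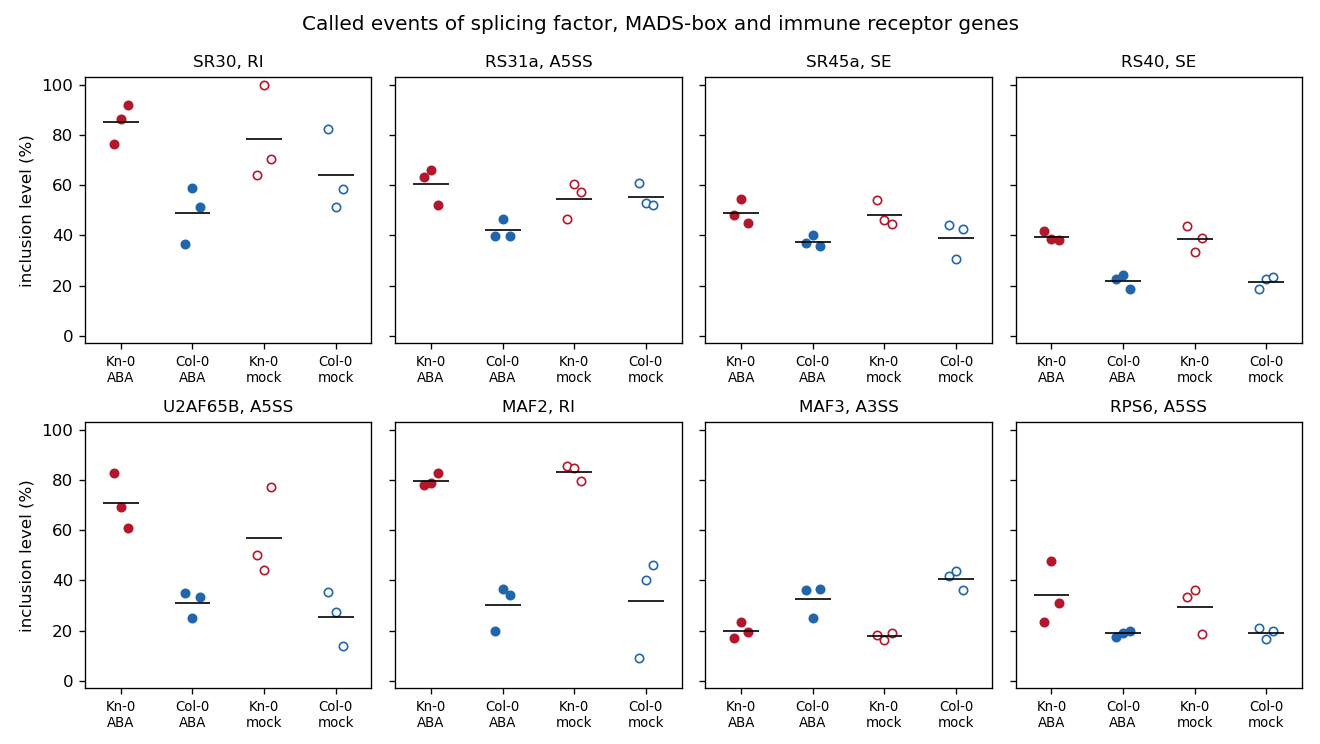
Inclusion level in percent of 1 called event per listed gene in all 12 libraries (RI, retained intron; SE, skipped exon; A5SS and A3SS, alternative 5' and 3' splice sites); filled points are ABA and open points mock libraries, red Kn-0 and blue Col-0, and bars are means of 3. In RS40, U2AF65B and MAF2 the accessions differ under ABA and in mock, whereas the mock points of SR30 and RS31a overlap.

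Several genes carried calls of more than 1 type, 26 of the 215 with at least 2 types and 6 with at least 3; the genes named here were chosen after their values were seen. PnsB4 (AT1G18730), a subunit of the chloroplast NADH dehydrogenase-like complex, had the most, 10 of its 29 tested events in all 4 types, each higher in Kn-0. All 10 lie within 1 stretch, chromosome 1, 6460809 to 6461173, and overlap, so they are not separate evidence. The lowest p was that of a skipped exon of 65 bases at 30.4%, 45.8% and 11.6% in Kn-0, against 2.5%, 4.8% and 5.2% in Col-0 (limma adjusted p = 0.00024). DWA1 (AT2G19430), a subunit of a ubiquitin ligase that restrains ABA responses, had 5 of 9 events called, several of which overlap. A micro-exon of 7 bases was included at 45.9%, 44.5% and 31.4% in Kn-0, against 91.2%, 100% and 100% in Col-0 (log2 odds difference -4.16 ± 0.94, limma adjusted p = 0.0005).

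Introns of 91 and 90 bases in DWA1 were retained at 15.9%, 16.2% and 15.3% and at 13.4%, 17.1% and 13.3% in Kn-0, against 1.5%, 3.6% and 1.0% and 3.2%, 5.5% and 2.2% in Col-0. In AT3G32940, a KH domain RNA-binding protein, an intron was retained at 76.5%, 93.9% and 95.6% in Kn-0, against 40.5%, 37.5% and 57.1% in Col-0 (limma adjusted p = 0.00028). AT2G30600, of the BTB/POZ domain family, used the long form of an alternative 3' site, longer by 6 bases, at 59.5%, 66.0% and 63.8% in Kn-0, against 99.2%, 98.7% and 98.5% in Col-0 (log2 odds difference -5.48 ± 0.36, limma adjusted p = 4.1e-48). AT3G55080 had 7 of 16 events called in all 4 types, and AT1G05870 had all of its 4 tested events called. In both genes several of these events overlap, so the counts are not of separate changes.

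Called and tested events can be set side by side on further features, as a description with no test. The alternative stretch was a multiple of 3 in 34.4% of called and 33.1% of tested events. It lay in or next to coding sequence in 83.4% of called and 92.6% of tested events, with the widest gap for alternative 5' sites, at 68.8% and 87.4%. Skipped exons ran the other way, at 79.6% of called and 65.1% of tested events. Called introns had a median length of 97.0 bases against 95.0 for tested ones, and called exons 102.0 against 85.5. The distance between alternative 5' sites had a median of 115.5 bases in called and 21.0 in tested events, and between alternative 3' sites 31.0 and 16.0.

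Sites over 50 bases apart were called in 29 of 673 events (4.31%) for donors and in 39 of 1022 (3.82%) for acceptors. Donors 4 bases apart were called in 1 of 242 events (0.413%), and acceptors 4 bases apart in 0 of 287. The share called fell with depth at the top end: 2.13% of events with a mean under 50 junction reads per library, 2.84% at 50 to 100, 2.49% at 100 to 200, 1.44% at 200 to 500 and 0.791% above. Depth itself enters the call, through the read minimum, the weights and the trend. By chromosome it ran from 1.53% on chromosome 4 to 2.35% on chromosome 2.

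**Figure D4:**
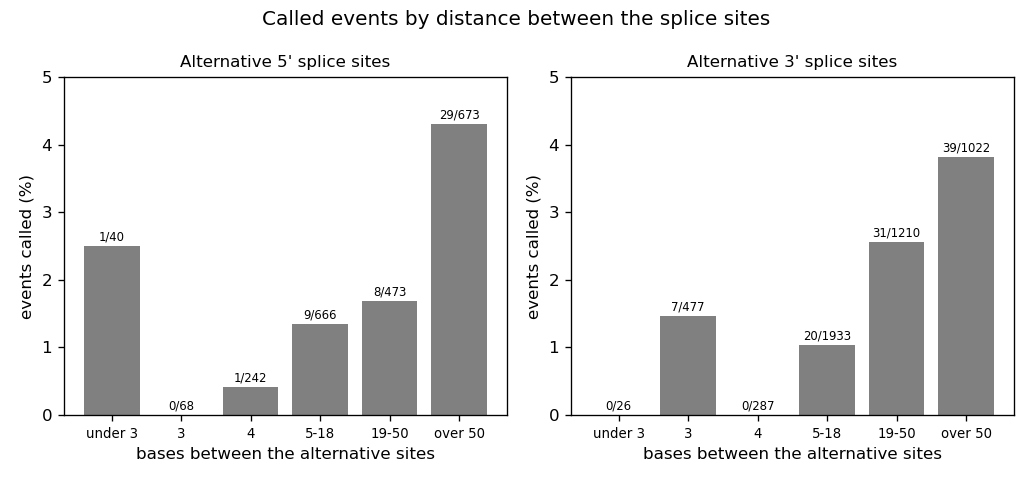
Share of tested alternative splice site events that were called, in percent, by the number of bases between both sites, donors on the left and acceptors on the right; the numbers over the bars are events called over events tested. The bars for sites over 50 bases apart, at 4.31% and 3.82%, are the highest in their panels, while those of the rare pairs under 3 bases rest on 40 and 26 events.

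The mock libraries are other plants of the same accessions and show whether the differences were there without the hormone. Of the 320 events called under ABA, 305 passed the filters in mock, and 297 of these differed in the same direction. In mock 216 were called by the same rule (70.8%), and 0 were called in the opposite direction. Over all mock events 358 of 15985 were called (2.24%). The median difference of the 305 events was 0.189 under ABA and 0.168 in mock, taken in the direction seen under ABA. All but 1 of the 25 events with a difference of at least 0.5 under ABA passed 0.5 in mock too. AT5G53010 had the long form at 2.1%, 4.1% and 0.0% in Kn-0 mock libraries, against 97.1%, 96.2% and 96.2% in Col-0 mock libraries. REV1 included its intron at 7.0%, 2.1% and 0.0% in Kn-0 mock libraries, against 97.3%, 91.7% and 92.5% in Col-0 mock libraries. Across the 305 events, which were chosen for their size under ABA, the differences in both conditions had a Pearson r of 0.96, and across all 13725 events tested in both it was 0.639. Events are not independent, and the values of an event share its gene models and read placement in both conditions.

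**Figure D5:**
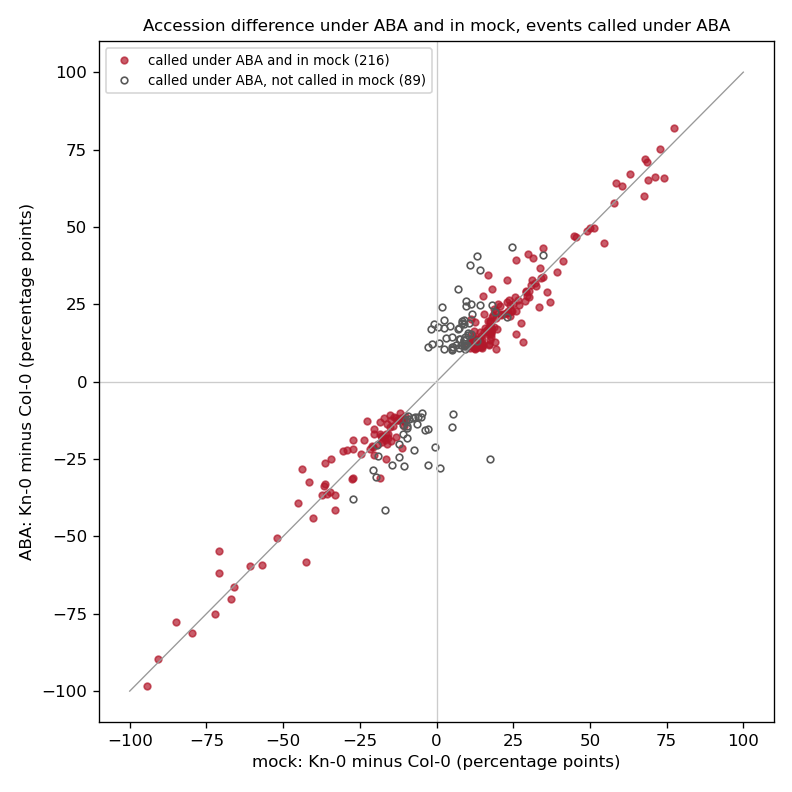
Difference in mean inclusion level, Kn-0 minus Col-0 in percentage points, under ABA (vertical axis) and in mock (horizontal axis) for 305 events called under ABA; filled points were also called in mock (216) and open points were not (89). The line marks equal differences; filled points follow it over the whole range, and nearly all open points lie within 25 points of zero in mock.

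The remaining 89 events, in 76 genes, were called under ABA and not in mock, which does not show that the hormone changed the difference. Their median difference was 0.169 under ABA and 0.09 in mock in the same direction, and 81 kept their direction. The interaction of accession and ABA, tested with limma over all 12 libraries, was passed by 0 of 15620 events (0.0%). Without adjustment 942 (6.03%) had p under 0.05, and the lowest adjusted p was 0.15. Among the 89 events, 20 had an unadjusted p under 0.05 and the lowest adjusted p was 0.27.

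Named events differed between mock and ABA in both directions without passing that test, and some stood closer in mock. AT4G19550 included its exon at 52.5%, 56.2% and 36.3% in Kn-0 mock libraries, against 51.5%, 48.9% and 39.3% in Col-0 mock libraries, so that these overlapped (interaction unadjusted p = 0.0021 and adjusted p = 0.67 in limma). RS31a stood at 46.4%, 60.3% and 57.3% in Kn-0 mock libraries and at 60.9%, 53.0% and 52.3% in Col-0 mock libraries, with overlap (interaction adjusted p = 0.69 in limma). SR30 stood at 64.1%, 100% and 70.6% in Kn-0 mock libraries and at 82.4%, 51.2% and 58.6% in Col-0 mock libraries, again with overlap (interaction adjusted p = 0.78 in limma). HSL1 stood at 64.5%, 73.9% and 62.8% in Kn-0 mock libraries and at 55.6%, 50% and 62.5% in Col-0 mock libraries, without overlap (interaction adjusted p = 0.78 in limma). RS40, in contrast, was at 43.7%, 33.3% and 38.9% in Kn-0 mock libraries and at 18.7%, 22.5% and 23.6% in Col-0 mock libraries, a difference of 17 points against 17.7 under ABA. Others stood farther apart in mock. MAF3 differed by -12.7 points under ABA and by -22.6 in mock, with the long form at 18.1%, 16.4% and 19.2% in Kn-0 mock libraries and at 41.8%, 43.7% and 36.0% in Col-0 mock libraries (interaction unadjusted p = 0.019 and adjusted p = 0.77 in limma). The exon of AT5G65685 differed by -28.3 points under ABA and by -43.9 in mock, that of AT5G06350 by -22.4 and -30.3, and the alternative 5' site of REV1 by -54.7 and -70.9.

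The mean level of retention differed little between the accessions. Over 7993 introns the mean inclusion level was 0.24, 0.2451 and 0.2432 in the Kn-0 ABA libraries, against 0.2356, 0.2347 and 0.239 in the Col-0 ABA libraries. The groups do not overlap, but they differ by only 0.0063, and the exact two-sided permutation p was 0.1, the smallest that 3 libraries against 3 allow. In mock the means were 0.2447 ± 0.0022 in Kn-0 and 0.2383 ± 0.0012 in Col-0 (SD, n = 3 each). Skipped exons averaged 0.5498 ± 0.0035 in Kn-0 and 0.5407 ± 0.0016 in Col-0 (SD, n = 3 each, exact permutation p = 0.1). Alternative 5' sites averaged 0.4583 ± 0.00085 in Kn-0 and 0.4576 ± 0.0014 in Col-0 (SD, n = 3 each, exact permutation p = 0.6), and alternative 3' sites 0.5471 ± 0.00091 in Kn-0 and 0.5491 ± 0.00065 in Col-0 (SD, n = 3 each, exact permutation p = 0.1).

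Total depth was 14595459 to 14802673 junction reads per Kn-0 ABA library and 14252470 to 14900983 per Col-0 ABA library, counted over 1 event per gene. The median gene had 287 to 295 reads in the Kn-0 ABA libraries and 261 to 272 in the Col-0 ABA libraries, over 14211 genes in Kn-0 and 14460 in Col-0, so these medians did not overlap; their part in the results was not tested. All 4 shoot markers had reads in every ABA library. RCA had 42994 to 47930 junction reads in Kn-0 and 37853 to 39411 in Col-0, without overlap. The ranges of the other shoot markers overlapped, with 80764 to 84781 in Kn-0 and 80877 to 89999 in Col-0 for LHCB5, 56815 to 63913 in Kn-0 and 52300 to 62085 in Col-0 for GAPB, and 51 to 58 in Kn-0 and 53 to 82 in Col-0 for RBCS1A. The 4 root markers IRT1, CASP1, SCR and PLT1 had no paired event, so the root share of the seedlings was not measured.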

How the data were processed

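Per the file headers, the authors counted junction reads per event with rMATS, separately for each accession, and deposited inclusion levels rounded to 3 decimals. STAR and featureCounts, and TAIR10 for Col-0, are in the submitters' processing notes; the Kn-0 build is not given in the sources used here. The authors' deposited log2 fold changes of ABA over mock were used only to check that the second sample of each table is ABA (r = 0.965 in Kn-0 over 13661 genes and r = 0.967 in Col-0 over 13743 genes). Commas between the counts of 3 libraries were lost in 62.51% of Kn-0 and 59.68% of Col-0 events. Digits were split to match the deposited levels within 0.0005, and where several splits matched, the most even was taken (highest count at most 3 times the lowest, and the next split at least 2 times less even). This rule gave the same result in 318997 of 318997 cells of known division that it could divide, and 16 called events rest on it, QQT2 and AT5G24740 among those named. In the tables the libraries stand in an order that the labels do not explain, so the first library need not be replicate 1. Chi-square over its degrees of freedom was 2.51 to 6.24 between replicates, so no pair of libraries was a duplicate.

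The log2 odds of inclusion, with 0.5 reads added, were tested with limma 3.58.1 in R 4.3.3 with precision weights, trend and robust moderation, two-sided and with Benjamini-Hochberg adjustment. Within ABA and within mock the moderation shrank the variances almost wholly to the trend (prior degrees of freedom of at least 7570), so an event's own replicate spread enters its p little. The alternative that lets it enter is given in the closing section. In the test on simulated data of 18061 events, 50%, 88%, 98% and 100% of differences of 0.1, 0.2, 0.3 and 0.5 between Kn-0 ABA and Col-0 ABA were called, and 2.3% of calls were false. Every simulated event had the same small spread beyond counting error, and differences in gene models or read placement were not simulated. The 2.3% therefore does not give the false share of the real calls. Sequence and gene models are from RefSeq TAIR10.1, and copies were sought with blastn 2.17.0 (at least 90% identity over 80% of the region with 40 bases on each side).

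The events named are, for each type and direction, the 4 genes with the largest called difference among events that reach 20 junction reads throughout the ABA libraries without overlap, and every listed gene with a call. The members and lists were chosen with earlier results of these data known. Kn-0 and Col-0 expression levels and the authors' own tests of ABA against mock were not used here.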

Additional observations from a re-analysis of the deposited data

How the results depend on the processing

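The count of events called between Kn-0 and Col-0 under ABA, 320, ran from 251 to 377 under the other read minimums, moderations, pseudocount, scale and adjustment, and from 257 to 288 when each library was left out. With each event's own variance allowed to raise the moderated one it was 255. It moved to 155 with a difference of at least 0.2, to 170 without precision weights, and to 62 when a gene had to have the same number of events in both tables, which leaves fewer events. How many tested events that last rule leaves was not counted, so the 62 calls cannot be given as a share. Chosen after seeing the data, pairing by the inner boundaries alone called 850 of 25034 events, and a variance never under the binomial one called 309. In mock the count of 358 ran from 288 to 314 when each library was left out and moved to 149 and 164 under the larger difference and without weights. The interaction count of 0 was 0 to 1 when each library was left out, and the 1 call came without the first Col-0 mock library. The difference in mean intron retention, 0.0063, ran from 0.0052 to 0.0077. The order of libraries does not pair them across accessions, as correlations of deviations were -0.015 to 0.013; with that order as a replicate block the counts were 337 under ABA, 378 in mock and 0 for the interaction. The equal number of events ended 30 of the 39 named calls, since the events of such genes are then left out: among others both events each of REV1, AT1G05870 and AT3G55080, and those of AT5G53010, AT5G61190, AT1G31500, NUC-L1, CYSC1, SR30, SR45a, RS40, MAF2 and MAF3. The larger difference ended 5 and the removal of evenly divided counts 2. Under the other settings 24 kept their call wherever they were tested, though the MAF2 intron was not tested at a minimum of 20 reads; 14 lost it without precision weights (besides SR30, RS31a, SR45a, U2AF65B and MAF3 these were RPS6, HSL1, AT1G27921, AT1G49590, AT2G30600, AT3G16565, AT4G19550, AT5G06350 and AT5G65685), 5 lost it with their own variance (MAF3, RPS6, AT1G27921, AT2G30600 and AT4G19550), and 0 changed direction in any setting. Depth limits small differences at events near 10 reads per library.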
